A study of Mus musculus with 8 samples.

Results

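Replication-dependent histone genes encode the linker histone H1 and the core histones H2A, H2B, H3 and H4 that package newly made DNA. The gene table of this study held 67 rows, of 19191 in all, whose symbols begin with Hist1h, Hist2h, Hist3h or Hist4h, and all 67 are described here. By type there were 6 H1 rows, 19 H2a rows, 18 H2b rows, 11 H3 rows and 13 H4 rows. By cluster, 55 belonged to Hist1 on chromosome 13, 9 to Hist2 on chromosome 3, 2 to Hist3 on chromosome 11 and 1 to Hist4 on chromosome 6. Rows were taken by symbol alone, so none was picked or left out by its own value. The set itself was chosen with earlier results of these data known. All 67 passed the filter on low counts and were tested.

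The libraries held ribosome-depleted total RNA from sorted Treg cells of the large intestine lamina propria of C57BL/6 mice. Treg cells are CD4 T cells that restrain immune responses and are marked by the factor Foxp3. The libraries labelled WT were Ahrf/+ Foxp3Yfp-Cre, with 1 floxed and 1 intact allele of the aryl hydrocarbon receptor gene Ahr. The libraries labelled KO were Ahrf/- Foxp3Yfp-Cre, with 1 floxed allele and 1 null allele. Both genotypes carried the Cre recombinase, made with Foxp3 and so in Treg cells, and WT Treg cells kept 1 working copy. There were 2 libraries per genotype, numbered 1 and 2. Other cells of KO mice carried the null allele too, so effects within Treg cells and from surrounding tissue cannot be told apart. No source used here gives age, sex or the number of mice per library. The labels do not say that libraries came from separate mice, so the spread that enters each p-value may be technical.

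Most messenger RNAs end in a poly(A) tail, whereas the messages of these genes end in a conserved stem-loop bound by SLBP, the stem-loop binding protein. They are made mainly in S phase, when DNA is copied, and are degraded when copying stops. Their coding parts are so alike that a read can match several copies, and no source used here says how such reads were counted. Values of single rows are therefore uncertain, and sums over a type are given beside them. In a population of cells, fewer cells in S phase and less histone RNA per cell cannot be told apart.

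Total gene counts ran from 26862922 (WT library 1) to 62402450 (WT library 2), and in both genotypes library 2 was the deeper one. Levels are given in CPM, counts per 1000000 after TMM scaling. Over the whole Ahr gene, reads stood at 581 and 539 CPM in the WT libraries against 536 and 518 in the KO libraries (log2 fold change -0.09 ± 0.09, SE), so counts of the gene did not check the deletion. Foxp3 stood at 280 and 252 CPM in the WT libraries against 250 and 259 in the KO libraries. The mitochondrial leucyl-tRNA synthetase gene Lars2 differed widely between libraries, at 367 and 16313 CPM in the WT libraries against 639 and 7320 in the KO libraries.

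Many H2a and H2b genes lie head to head and share the DNA between their starts. Promoter sequences came from RefSeq (GRCm38.p6, whose coordinates differ from the mm9 coordinates of the table), where 59 of the 67 rows matched a gene with 1 promoter entry. The 150 bases before the annotated start are shown for 1 such pair, which holds Hist1h2ak, the member of lowest p below. They are also shown for 1 member each of H1, H2b with an octamer, H3 and H4. Capitals mark 4 motifs and their reverse complements, so that both strands were searched. CCAAT is the box bound by NF-Y. TATAAA is a TATA box. The octamer ATTTGCAT is bound by Oct-1. AAACACA is an element known from H1 promoters. The ends of these motifs can overlap one another.
Hist1h2ak: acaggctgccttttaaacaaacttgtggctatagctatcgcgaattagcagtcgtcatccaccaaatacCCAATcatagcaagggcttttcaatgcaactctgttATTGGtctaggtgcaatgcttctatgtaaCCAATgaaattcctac
Hist1h2bn: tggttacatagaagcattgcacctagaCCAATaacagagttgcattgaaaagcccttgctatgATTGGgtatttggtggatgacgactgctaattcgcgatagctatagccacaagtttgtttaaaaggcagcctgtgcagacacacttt
Hist1h2bb: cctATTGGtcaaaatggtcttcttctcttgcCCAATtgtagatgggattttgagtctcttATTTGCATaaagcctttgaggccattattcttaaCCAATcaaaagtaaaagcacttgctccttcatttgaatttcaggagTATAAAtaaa
Hist1h3h: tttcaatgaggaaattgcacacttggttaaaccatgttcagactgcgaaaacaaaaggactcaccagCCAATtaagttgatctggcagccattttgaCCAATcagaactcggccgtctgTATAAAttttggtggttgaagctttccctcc
Hist1h4d: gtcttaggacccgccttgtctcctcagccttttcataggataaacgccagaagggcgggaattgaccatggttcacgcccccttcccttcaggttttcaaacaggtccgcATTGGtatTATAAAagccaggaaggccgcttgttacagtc
Hist1h1b: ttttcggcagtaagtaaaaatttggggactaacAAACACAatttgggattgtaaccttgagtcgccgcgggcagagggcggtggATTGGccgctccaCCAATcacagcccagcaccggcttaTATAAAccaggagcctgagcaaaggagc

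The window of Hist1h2ak lies at chr13:21753913-21754062, minus strand, and that of Hist1h2bn at chr13:21753926-21754075, plus strand. These windows have 137 bases in common, read on opposite strands. Windows of the others lie at chr13:23746584-23746733, plus strand (Hist1h2bb), chr13:21717478-21717627, plus strand (Hist1h3h), chr13:23581418-23581567, plus strand (Hist1h4d) and chr13:21780626-21780775, minus strand (Hist1h1b).

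The 5 types differed in these letters. A CCAAT stood in all 6 H1, 17 H2a and 15 H2b windows matched and in 8 of 9 H3 windows, but in 3 of 12 H4 windows (25.0%), beside 24.5% of all 32851 promoter windows of this length. A TATAAA was found in 24 of 59 members (40.7%) and in 7.57% of all windows. The octamer was found in 5 of 17 H2a and 5 of 15 H2b windows, in none of the H1, H3 and H4 windows, and in 0.998% of all windows. AAACACA stood in 5 of 6 H1 windows, 1 H2a and 2 H2b windows, and in 3.53% of all windows. The CCAAT and octamer matches of divergent pairs are partly the same bases counted for both genes. The windows of Hist1h2bq and Hist1h2br were identical over all 150 bases. At a shift, those of Hist1h4m and Hist1h4n shared an unbroken run of 149 bases, Hist2h2aa1 and Hist2h2aa2 one of 110, and Hist1h4j and Hist1h4k one of 55. No other members shared a run of 50 bases or more, with each window read in the direction of its gene. Hist1h4d, shown above, is 1 of the 3 H4 genes with the box. A match is a description of letters and not a measured binding site.

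All members together made up 0.399% and 0.448% of gene counts in WT libraries 1 and 2 and 0.459% and 0.474% in KO libraries 1 and 2. In scaled levels the sums were 3996 and 4389 CPM in the WT libraries against 4638 and 4797 in the KO libraries, so both KO libraries lay above both WT libraries. Means were 4192 ± 278 CPM for WT against 4717 ± 112 CPM for KO (SD, n = 2). The log2 difference of KO from WT was 0.17, with 0.21 between the libraries numbered 1 and 0.13 between those numbered 2. Without WT library 1 the log2 difference was 0.10. An exact two-sided permutation test gave p = 0.333, the smallest p that 2 against 2 libraries allow.

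H1 took the largest share of the histone counts, and H4 and H2b followed. H1 held 38.4% and 36.1% of member counts in WT and 35.5% and 32.4% in KO. H4 held between 19.2% and 20.7%, H3 between 9.72% and 11.0% and H2a between 10.7% and 13.2% over the 4 libraries. The H2b share varied more, at 18.6% and 23.7% in WT and 20.0% and 25.1% in KO.

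Levels of single genes can be compared only per length, and the spans in the table do not give exon lengths. For the 51 rows with a span under 1000 bases, the level per kilobase of span had a median of 148 CPM in H4 (12 rows), 113 in H2b (11 rows), 70.3 in H1 (4 rows), 61.2 in H3 (8 rows) and 40.2 in H2a (16 rows). The highest was the H1 gene Hist1h1e (chromosome 13, 23713624 to 23714371) at 485 CPM per kilobase, and the highest core histone row was Hist1h4d (chromosome 13, 23673467 to 23673859) at 369. The lowest were Hist1h1t (0.336) and Hist1h2aa (0.484), which encode testis forms. Hist1h2ba, the testis form of H2B that lies head to head with Hist1h2aa, stood far higher, at 48.6 CPM per kilobase of span. Hist1h2aa had 0 and 18 reads in WT and 0 and 25 reads in KO. A count of 0 allows up to 0.112 CPM in WT library 1 and 0.0978 CPM in KO library 1, taking 3 reads as the floor, which covers counting error only.

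Of 14274 genes, edgeR (quasi-likelihood F-test) called 0% at a Benjamini-Hochberg adjusted p under 0.05, and 0 of the 67 histone rows. DESeq2 called 0.267% of its genes and no histone row, with the lowest adjusted p at 0.626 for Hist1h2ak. The authors' deposited table held 0.344% of genes under 0.05 and no histone row, the lowest being 0.862 for Hist1h2ak. The file does not name the comparison behind that column, which was read as KO against WT. At an unadjusted edgeR p under 0.05, 18 histone rows were higher in KO and 0 lower, beside 1.64% of all genes tested that were higher at that level. The 18 rows were 11 of H2a, 6 of H3 and 1 of H4. Without WT library 1, WT library 2, KO library 1 or KO library 2 the number at an unadjusted p under 0.05, in either direction, was 14, 16, 8 or 8.

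Fitted levels were higher in KO for 64 of 67 rows, beside 52.0% of all genes tested. The median log2 fold change was 0.27 over the members and 0.01 over all genes tested. Members share reads and libraries, so these counts are not counts of independent results. Both KO libraries lay above both WT libraries in 35 rows, beside 13.5% of all genes tested, and below them in 1 row, beside 13.4%. Without WT library 1 the median of the members was 0.12 and 52 rows were higher, and without WT library 2 it was 0.33 with 65 rows.

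**Figure D1:**
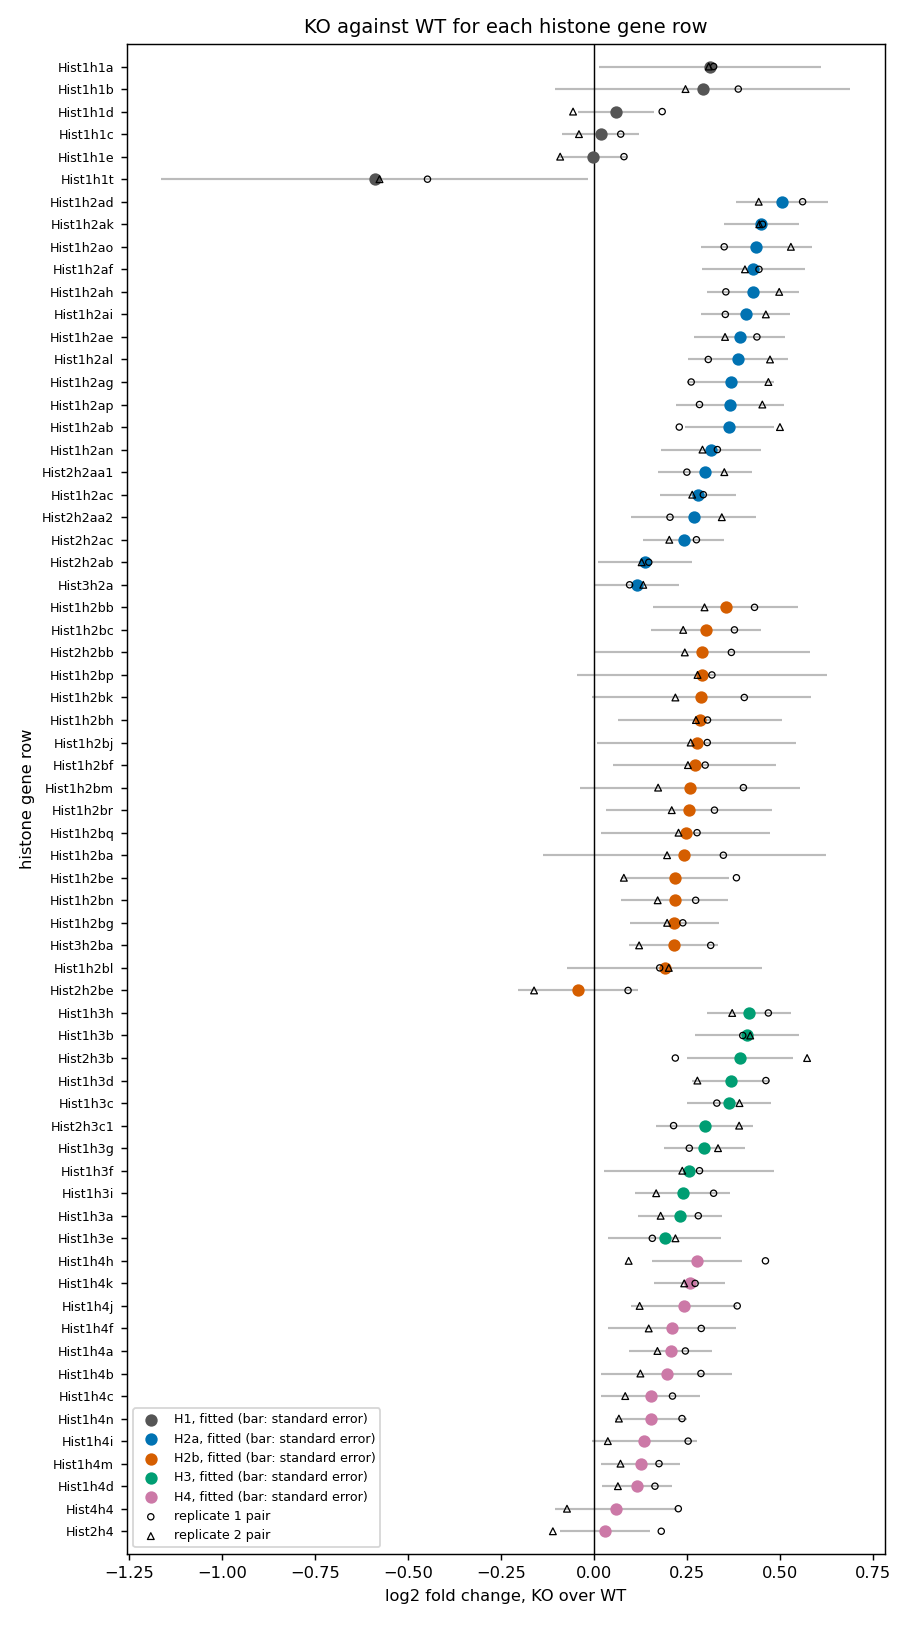
Log2 fold change of KO over WT (x axis) for 66 histone rows (y axis), grouped by type, with the fitted value and its standard error (filled points and bars) and the values between libraries of the same number (open marks). H2a and H3 rows all lie to the right of 0. Hist1h2aa, with 0 reads in a library of each genotype, is left out.

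H2A histones pair with H2B and form the outer part of the nucleosome, and their genes had the largest median difference of the 5 types when all 4 libraries were used. All 19 H2a rows had a fitted value above 0 (median log2 fold change 0.37, lowest 0.11). In 16 of them both KO libraries lay above both WT libraries, beside 13.5% of all genes tested. The H2a median was below that of H2b without WT library 2 (0.25 against 0.54) and without KO library 1 (0.32 against 0.45). Between the libraries numbered 1 it was 0.29 against 0.31, and between those numbered 2 it was 0.44 against 0.21. Hist1h2ak (chromosome 13, 21845264 to 21845776, minus strand, mm9) had the lowest p among the members. Its levels were 30.4 and 29.0 CPM in the WT libraries against 41.6 and 39.5 in the KO libraries. The groups did not overlap, and the libraries of 1 genotype differed by far less than the genotypes did. The log2 fold change was 0.45 ± 0.10 (SE), with a 95% interval of 0.20 to 0.70, and the adjusted p was 1.00 (edgeR, unadjusted p = 0.00536).

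Hist1h2ad (chromosome 13, 23666250 to 23666821) stood at 14.9 and 14.1 CPM in the WT libraries against 22.0 and 19.1 in the KO libraries, and its log2 fold change of 0.50 ± 0.12 was the largest of rows with reads in every library. Hist1h2ao followed with 24.1 and 19.0 CPM in the WT libraries against 30.7 and 27.5 in the KO libraries (0.44 ± 0.15). Both genes had KO libraries above both WT libraries. Hist1h2af (0.43 ± 0.14), Hist1h2ah (0.43 ± 0.12), Hist1h2ai (0.41 ± 0.12), Hist1h2ae (0.39 ± 0.12) and Hist1h2al (0.39 ± 0.13) had similar log2 fold changes. Hist1h2ag (0.37 ± 0.12), Hist1h2ab (0.36 ± 0.12) and Hist1h2ac (0.28 ± 0.10) also had an unadjusted p under 0.05. Hist1h2al lies apart from the rest of Hist1, at 51298057 to 51298434 of chromosome 13.

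Of the H2a rows, Hist3h2a, Hist2h2aa1 and Hist2h2aa2 had the highest CPM and differed less than Hist1h2ak (0.45 ± 0.10), the next in CPM. Hist3h2a, a copy also made with a poly(A) tail, stood at 98.5 and 110 CPM in the WT libraries against 105 and 121 in the KO libraries (log2 fold change 0.11 ± 0.11), and its groups overlapped. Its log2 fold change was 0.04 without WT library 1, 0.20 without WT library 2, 0.20 without KO library 1 and 0.01 without KO library 2. Its span overlaps that of Trim17, which averaged 80.1 CPM, so reads of either could be counted for the other. Hist2h2aa1 stood at 58.8 and 49.7 CPM in the WT libraries against 69.9 and 63.4 in the KO libraries (0.30 ± 0.13), and Hist2h2aa2, its near copy, had 0.27 ± 0.17. The value for Hist2h2aa2 was 0.47 without WT library 1, 0.08 without WT library 2 and 0.13 without KO library 1. Hist2h2aa1 shares 562 bases of span with the H3 row Hist2h3c1, so reads there cannot be assigned to one of them with certainty. The largest fitted value of all H2a rows, 0.62 ± 1.59 for Hist1h2aa, rests on 0 reads in 1 library of each genotype and depends on the prior count.

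H3 and H4 form the core of the nucleosome, and the tail of H3 carries many regulatory marks. All 11 H3 rows had a fitted value above 0 (median log2 fold change 0.30, from 0.19 to 0.42). In 9 of them both KO libraries lay above both WT libraries, beside 13.5% of all genes tested. Hist1h3h stood at 24.9 and 28.2 CPM in the WT libraries against 34.4 and 36.5 in the KO libraries, and the log2 fold change was 0.42 ± 0.11 (unadjusted p = 0.0123, adjusted p = 1.00, edgeR). Hist1h3b stood at 28.9 and 33.8 CPM in the WT libraries against 38.1 and 45.2 in the KO libraries (0.41 ± 0.14). In both genes the lower KO library lay above the higher WT library. Hist2h3b (0.39 ± 0.14), Hist1h3d (0.37 ± 0.10), Hist1h3c (0.36 ± 0.11) and Hist1h3g (0.30 ± 0.11) were the other H3 rows under an unadjusted p of 0.05. Hist2h3c1, the H3 row of highest CPM, stood at 83.6 and 68.3 CPM in the WT libraries against 97.0 and 89.5 in the KO libraries (0.30 ± 0.13). Its span is 2955 bases, of which it shares 562 with Hist2h2aa1, and its level per kilobase of span was 28.6 CPM. Hist1h3e (0.19 ± 0.15), Hist1h3f (0.25 ± 0.23) and Hist1h3i (0.24 ± 0.13) came next in CPM. Hist1h3e had 0.07 without WT library 1, 0.32 without WT library 2, 0.33 without KO library 1 and 0.02 without KO library 2.

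H4 rows were also all above 0, by less (median 0.15, from 0.03 to 0.28). Without WT library 2 the H4 median was 0.28. The median was 0.24 between the libraries numbered 1 and 0.08 between those numbered 2, and 11 of 13 rows were above 0 in the latter. Hist1h4k stood at 52.9 and 52.9 CPM in the WT libraries against 63.8 and 62.6 in the KO libraries (0.26 ± 0.10), the 1 H4 row under an unadjusted p of 0.05. The most abundant row, Hist1h4d, stood at 142 and 137 CPM in the WT libraries against 159 and 143 in the KO libraries (0.12 ± 0.10). Here KO library 2 lay just above both WT libraries, and the log2 fold change was 0.03 without KO library 1 and 0.19 without KO library 2. Hist1h4c (0.15 ± 0.13), Hist1h4m (0.12 ± 0.11) and Hist1h4n (0.15 ± 0.10) were close to it. Hist2h4 (0.03 ± 0.12) and Hist4h4 (0.06 ± 0.16) were nearest to 0, and their WT and KO values overlapped.

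H2B rows had 17 of 18 fitted values above 0 (median 0.26). In 4 of the 18 rows both KO libraries lay above both WT libraries, beside 13.5% of all genes tested. Those 4 were Hist1h2be, Hist1h2bg, Hist1h2bc and Hist3h2ba. Hist1h2bg stood at 76.0 and 87.8 CPM in the WT libraries against 89.6 and 101 in the KO libraries (0.22 ± 0.12). Hist1h2bc, a copy also made with a poly(A) tail, stood at 61.4 and 77.4 CPM in the WT libraries against 79.7 and 91.4 in the KO libraries (0.30 ± 0.15). Hist1h2be (0.22 ± 0.15) and Hist3h2ba (0.21 ± 0.12) had similar values, and the span of Hist1h2be in the table, 37383 bases, is far longer than its coding part. Hist1h2bb had 57.9 and 80.0 CPM in the WT libraries against 78.1 and 98.3 in the KO libraries, so KO library 1 lay below WT library 2 although the log2 fold change was 0.35 ± 0.19. Hist2h2be, a copy also made with a poly(A) tail, was the exception at -0.04 ± 0.16. The H2b median was 0.31 between the libraries numbered 1 and 0.21 between those numbered 2, with 18 and 17 of 18 rows above 0. It varied more when a library was left out, which sets unequal mixes of libraries numbered 1 and 2 against each other. The H2b median was then 0.01 without WT library 1 and 0.01 without KO library 2, with 11 and 9 rows higher. It was 0.54 without WT library 2 and 0.45 without KO library 1.

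Linker histone H1 binds the DNA between nucleosomes, and the 3 H1 genes of highest CPM were nearly level between genotypes. Hist1h1c, the member with the highest CPM (chromosome 13, 23830676 to 23832235), stood at 905 and 864 CPM in the WT libraries against 950 and 840 in the KO libraries. Its KO values lay on either side of both WT values. The log2 fold change was 0.02 ± 0.10 with a 95% interval of -0.24 to 0.28. Hist1h1e stood at 361 and 366 CPM in the WT libraries against 381 and 343 in the KO libraries, with an interval of -0.23 to 0.23. Hist1h1d had 0.06 ± 0.10, from -0.20 to 0.32. Hist1h1a and Hist1h1b, which are known to be made in dividing cells, had 0.31 ± 0.30 and 0.29 ± 0.40. Hist1h1t, at 0.227 to 0.372 CPM, had -0.59 ± 0.57 and was the 1 row with both KO libraries below both WT libraries.

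**Figure D2:**
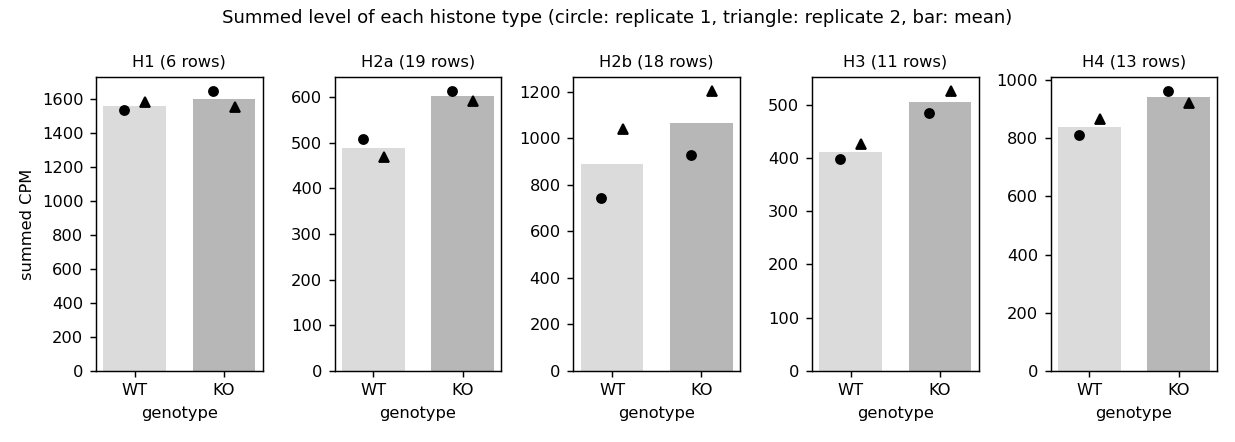
Summed CPM (y axis, from 0) of the rows of each histone type in each library, by genotype (x axis), with circles for replicate 1, triangles for replicate 2 and bars for the mean. The KO libraries lie above the WT libraries in H2a, H3 and H4 and overlap them in H1 and H2b.

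Sums do not depend on how reads are divided among copies of 1 type if each read was counted once, which no source used here states. The H2a and H3 sums are not fully separate, since Hist2h2aa1 and Hist2h3c1 share 562 bases of span. H2a summed to 508 and 470 CPM in the WT libraries against 613 and 591 in the KO libraries, a log2 difference of 0.30. H3 summed to 397 and 427 CPM in the WT libraries against 484 and 526 in the KO libraries (0.29), and H4 to 812 and 867 CPM in the WT libraries against 962 and 921 in the KO libraries (0.17). In these 3 types the genotypes did not overlap. H2b summed to 742 and 1039 CPM in the WT libraries against 930 and 1203 in the KO libraries (0.27), where KO library 1 lay below WT library 2. H1 summed to 1536 and 1586 CPM in the WT libraries against 1648 and 1555 in the KO libraries (0.04), also with overlap. Differences between types were not tested.

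The spread between libraries of 1 genotype was itself a matter of histone type. In both genotypes H2b rows were higher in library 2 and most H2a rows were lower. Between the WT libraries, the log2 difference of library 2 from library 1 had a median of 0.50 over H2b rows and -0.16 over H2a rows, and between the KO libraries of 0.44 and -0.09. All 18 H2b rows were higher in WT library 2 than in WT library 1, and 16 of 18 in KO library 2 than in KO library 1. Leaving aside Hist1h2aa, this held for 3 and 5 of 18 H2a rows. The ratio of summed H2b to summed H2a was 1.46 and 2.21 in WT and 1.52 and 2.04 in KO, so it followed the library number and not the genotype.

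Members of other types took part in this difference. Hist1h1b stood at 33.7 and 66.6 CPM in the WT libraries against 44.1 and 78.9 in the KO libraries, the widest difference between libraries of a genotype among rows with reads in every library. Hist1h1a, Hist1h2ba and Hist1h3f were also higher in library 2 of both genotypes, by log2 0.67 and 0.66, 0.94 and 0.79, and 0.51 and 0.47.

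Other values moved with the library number too. The 29 genes of G2 and mitosis had a median log2 difference of library 2 from library 1 of 0.76 in WT and 0.72 in KO, and 44 S phase genes 0.31 and 0.25. The proliferation marker Mki67 stood at 234 and 341 CPM in the WT libraries against 271 and 402 in the KO libraries. Stromal markers summed to 9.20 and 51.4 CPM in the WT libraries against 7.17 and 61.3 in the KO libraries (4 of 4 found), and macrophage markers (7 of 8 found) to 131 and 60.5 CPM and 96.8 and 43.3 CPM. Depth, Lars2, the cell cycle lists and the stromal markers were higher in library 2 of both genotypes, as H2b was, while macrophage markers were lower. Their part in the result was not tested. The labels do not say what the library number stands for.

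**Figure D3:**
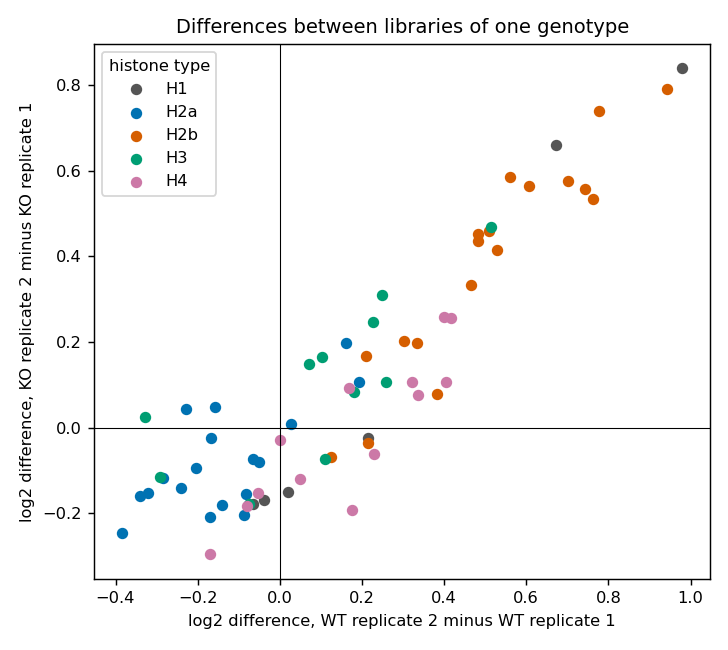
Log2 difference of library 2 from library 1 in WT (x axis) and in KO (y axis) for 66 histone rows, with 1 point per row coloured by type. H2b rows lie toward the upper right and most H2a rows toward the lower left. Hist1h2aa, at 2.84 and 3.50, is outside the range and left out.

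Head-to-head pairs compare both types at 1 place in the genome. There were 12 pairs of 1 H2a and 1 H2b row that lay on opposite strands with starts 167 to 305 bases apart. Without the pair of Hist1h2aa, the H2a row had the larger log2 fold change of KO over WT in 10 of 11 pairs (medians 0.39 and 0.25). This count depended on the libraries. It was 7 of 11 between the libraries numbered 1 and 11 of 11 between those numbered 2. It was 11 without WT library 1 or KO library 2, but 3 without WT library 2 or KO library 1. The H2b row had the larger difference of library 2 from library 1 in 11 of 11 pairs in WT and in 11 of 11 in KO. In the pair shown above, Hist1h2ak had 0.45 and Hist1h2bn 0.22 for genotype, and between the WT libraries -0.07 and 0.30. For Hist1h2ao and Hist1h2bq the genotype values were 0.44 and 0.25, and the WT library differences -0.34 and 0.51. The exception for genotype was Hist1h2ac (0.28) with Hist1h2bc (0.30). These pairs share their libraries and were compared without a test.

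**Figure D4:**
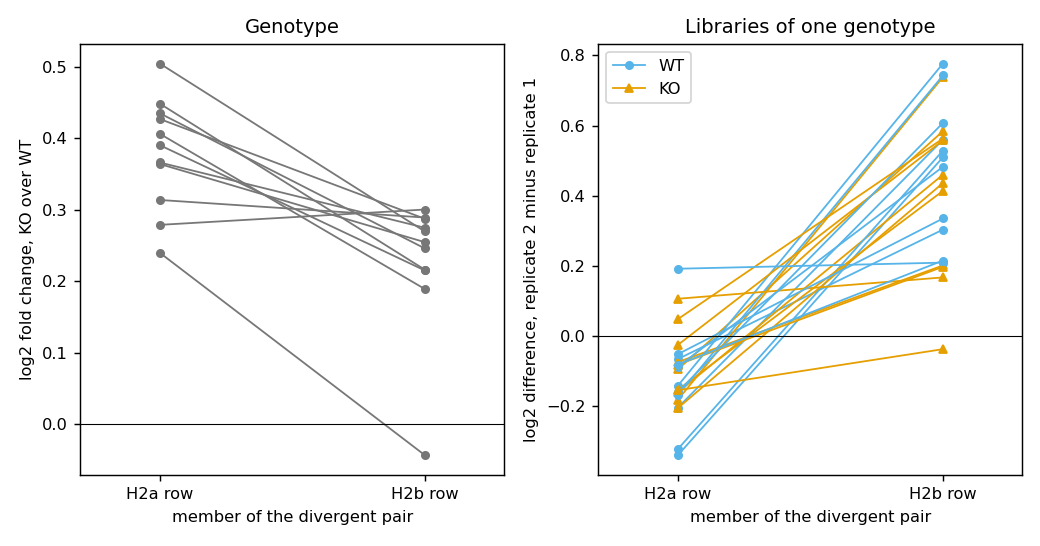
Values of the H2a row and the H2b row (x axis) of 11 head-to-head pairs, joined by lines. The left panel shows the log2 fold change of KO over WT (y axis), which is larger for the H2a row in 10 pairs. The right panel shows the log2 difference between libraries 2 and 1 of WT (circles) and KO (triangles), which is larger for the H2b row in every pair.

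The clusters differed little in the direction of their rows. In Hist1, 53 of 55 rows were higher in KO (median log2 fold change 0.27), in Hist2 8 of 9 (0.27), in Hist3 2 of 2 (0.16), and the lone Hist4 row, Hist4h4, had 0.06. Hist1 falls into blocks on chromosome 13, of 23 rows and of 31 rows, apart from Hist1h2al. Their medians were both 0.27. H2a rows had a median of 0.41 in both Hist1 blocks and 0.25 in Hist2, and H4 rows 0.15 and 0.20 in the Hist1 blocks. Other Hist2 rows were Hist2h2ac (0.24 ± 0.11), Hist2h2ab (0.14 ± 0.13) and Hist2h2bb (0.29 ± 0.29). Genes between the Hist1 rows, chosen by position with Hist1h2al left out, were 21, of which 4 passed the filter, 2 higher and 2 lower. Among them Abt1 had 0.16 ± 0.13 and Zfp322a 0.17 ± 0.10. With Hist1h2al as the outer limit there were 178 such genes, of which 126 were tested and 70 were higher, with a median of 0.01.

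Genes that make or handle histones did not show the same direction as a list, by count. Of 35 factors of histone gene transcription and message processing, 19 were higher and 16 lower (median 0.01). Casp8ap2, which encodes the histone locus body protein FLASH, stood at 135 and 138 CPM in the WT libraries against 151 and 153 in the KO libraries (0.15 ± 0.08). Cpsf3, the nuclease that cuts histone messages, stood at 70.3 and 76.2 CPM in the WT libraries against 61.1 and 61.3 in the KO libraries (-0.26 ± 0.10), with both KO libraries below both WT libraries. Of 23 histone chaperones and importers, 12 were higher and 11 lower (median 0.00), with Chaf1a at 0.25 ± 0.18. EdgeR and DESeq2 called none of either list, and Cpsf3 was the 1 gene of them at an unadjusted p under 0.05.

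Histone genes outside the clusters, which are made throughout the cell cycle or as variants, had 7 of 8 tested rows higher (median 0.13). H2afx, whose product marks DNA breaks, stood at 29.3 and 25.6 CPM in the WT libraries against 39.6 and 33.3 in the KO libraries (0.41 ± 0.14, unadjusted p = 0.0265, adjusted p = 1.00, edgeR). H2afz had 0.20 ± 0.11, the centromere variant Cenpa 0.21 ± 0.13 and H2afy -0.16 ± 0.08. The groups did not overlap for H2afx. H3f3b, a source of the H3.3 variant, was the most abundant of them by CPM and had 0.07 ± 0.12. EdgeR and DESeq2 called none, and H2afx was the 1 at an unadjusted p under 0.05.

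S phase genes were higher in 35 of 44 cases (median 0.11), and both KO libraries lay above both WT libraries in 5 and below in 3, no larger shares than the 13.5% and 13.4% of all genes tested. Pcna, the sliding clamp of DNA polymerase, stood at 244 and 249 CPM in the WT libraries against 265 and 300 in the KO libraries (0.20 ± 0.10). Cdt1, a licensing factor, had 0.27 ± 0.11, Tyms 0.27 ± 0.15 and Rfc4 -0.37 ± 0.16. G2 and mitosis genes were higher in 26 of 29 cases (median 0.17), and the WT and KO values overlapped in all 29. EdgeR and DESeq2 called no gene of either list, and 0 genes had an unadjusted p under 0.05. Among the 4 histone genes known to be made also with a poly(A) tail (Hist1h1c, Hist1h2bc, Hist2h2be and Hist3h2a), 3 were higher and the median was 0.07. Their summed level was 1071 and 1060 CPM in the WT libraries against 1143 and 1059 in the KO libraries, so the genotypes overlapped.

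Markers of other cells were measured beside those of T cells, and some were as high as single T cell markers. B cell markers (6 of 6 found) summed to 24.0 and 24.2 CPM in the WT libraries against 22.8 and 16.8 in the KO libraries, and Pax5 stood at 0.208 to 0.684 CPM. Epithelial markers (8 of 9 found) summed to 19.3 and 19.3 CPM in the WT libraries against 18.1 and 24.3 in the KO libraries, with Krt8 and Lgr5 at 0 in WT library 1 and Krt20 at 0 in WT library 2. Krt8 was the 1 gene of the marker lists that DESeq2 called (adjusted p = 0.0008), and edgeR called none. Krt8 stood at 0 and 0.126 CPM in the WT libraries against 1.01 and 3.86 in the KO libraries. Of 6 epithelial markers tested, 4 were higher in KO and 2 lower. The lower ones, Epcam (log2 fold change -0.17 ± 0.12) and Krt18 (-0.53 ± 0.30), had both KO libraries below both WT libraries. Plasma cell markers (4 of 6 found) summed to 348 and 458 CPM in the WT libraries against 352 and 575 in the KO libraries. Most of it was Xbp1 and Igj, while Sdc1 stood at 6.03 to 8.71 CPM and Tnfrsf17 at 0.186 to 1.51 CPM. Igj, the joining chain of secreted antibodies, stood at 122, 249, 131 and 343 CPM in WT libraries 1 and 2 and KO libraries 1 and 2, above the T cell receptor subunit Cd3e (118, 87.2, 108 and 80.7 CPM) in every library. Erythroid markers (3 of 3) summed to 18.5 and 30.7 CPM in the WT libraries against 24.2 and 22.9 in the KO libraries, endothelial markers (3 of 3) to between 107 and 116 CPM, nearly all Pecam1, and cytotoxic markers (5 of 5) to between 11.0 and 11.8 CPM. Neutrophil markers (2 of 4 found) summed to at most 0.931 CPM, with S100a9 at 0 in library 1 of both genotypes, as was the cytotoxic marker Ncr1. The T cell list (6 of 6) summed to 5889 and 5547 CPM in the WT libraries against 6629 and 6149 in the KO libraries. Most of this sum was Ctla4, an inhibitory receptor, at 3196 and 3045 CPM in WT against 3773 and 3620 in KO. Ctla4 had a log2 fold change of 0.24 ± 0.10. Of the T cell list, 3 genes were higher and 3 lower in KO, with a median of -0.008. The part of these lists in the histone values was not tested.

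Genes whose level over the 4 libraries was most like the summed histone level were Tgtp1, 1110002B05Rik and Diablo, out of 8549 genes of at least 10 CPM outside the members. Likeness was the root mean square difference of deviations in log2 CPM, at 0.0065, 0.0092 and 0.0116. With 4 values per gene and 8549 genes to pick from, close matches can arise without any link, and a link was not tested. Tgtp1, an interferon-induced GTPase, stood at 69.6 and 76.8 CPM in the WT libraries against 81.6 and 83.5 in the KO libraries.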

How the data were processed

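Gene counts of 4 RNA-seq libraries (2 per genotype) were used. The 4 ATAC-seq samples were not used here. The values were the deposited counts, whole numbers that were not normalized, which the authors made from ribosome-depleted total RNA per the labels' protocols. The deposited adjusted p-value per gene was made by the authors for a comparison that the file does not name, and was read as KO against WT. TopHat2, DESeq and the build mm9 are named per the submitters' processing notes. Which counter, annotation and strand setting were used is not given in the sources used here, nor how reads with several matches were treated.

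The table held 19191 rows (41 repeat a symbol). Members were the 67 rows whose symbol begins with Hist1h, Hist2h, Hist3h or Hist4h, typed by the letters that follow. The members and lists were chosen with earlier results of these data known. Genotype was tested with the quasi-likelihood F-test of edgeR 4.0.16 (R 4.3.3) and no other term, after filterByExpr (14274 genes kept, 4917 not tested), TMM scaling and Benjamini-Hochberg adjustment over all genes tested (threshold 0.05). The common dispersion was 0.0328, with 2 residual and 3.49 prior degrees of freedom. Total counts per library are 26862922, 62402450, 30993483 and 53438828. CPM are counts per 1000000 of the TMM-scaled total over tested genes. Log2 differences between single libraries used a prior count of 2. Errors of log2 fold changes are standard errors. Reads carried no molecular identifiers, so floors cover counting error only. The scripts were tested on simulated data.

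Named rows were Ahr, the 4 members of highest CPM per type, and the 5 largest and 5 smallest fold changes. Members called by any test without the replicate number as a block, or under an unadjusted p of 0.05, were also named. So were all Hist2, Hist3 and Hist4 rows, up to 4 genes of lowest p per list and the 3 most alike genes. Not every list gene the rule takes is printed. Hist1h1a, Hist1h2ba, Hist1h2bn, Hist1h2bq, Hist1h2br, Lars2, Foxp3, H3f3b, Trim17 and markers singled out by their level or a 0 were named after their values were seen. The list of short RNAs without a poly(A) tail had 0 of 18 genes in the table and could not be used. The narrower range for genes between Hist1 rows and the counts of pairs by library were chosen after seeing the data. Alternatives were other tests (DESeq2 1.42.0, limma-voom 3.58.1), other scaling (size factors of DESeq2 or the upper quartile), other filters (none, or at least 2 CPM in at least 2 libraries), the replicate number as a block, and leaving out each library.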

Additional observations from a re-analysis of the deposited data

How the results depend on the processing

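The count of histone rows called was 0 in edgeR and in every alternative without the replicate number, leaving out libraries included (0 to 0). With the replicate number as a block (replicate block), edgeR called 30 of the 67 rows, all higher, and 458 of 14274 genes in all (3.21%). Its p-values rest on 1 residual degree of freedom per gene and on variance shared across genes. The labels do not say that a number marks a shared mouse, batch or day, so the samples share only a number, and a correlation of deviations of 0.641 over all genes (0.942 over the members) is a hint from the data. The number of all genes called was 0 in the main test, 52 without a filter, 48 in DESeq2 and from 0 to 2 when a library was left out. The median log2 fold change of the members, 0.27, was 0.26 to 0.27 under other scalings, filters and tests and ran from 0.12 to 0.33 without a library. The summed level had a log2 difference of 0.17, which was 0.14 by total counts, 0.21 without Hist1h1c and from 0.10 to 0.24 without a library. Of 46 named rows, 11 turned direction in at least 1 fit without a library and none in another fit, and 17 others moved by over 1.5 times. The ranges of the 11 over those fits were -0.084 to 0.10 for Hist1h1c, -0.091 to 0.069 for Hist1h1e, -0.046 to 0.17 for Hist1h1d, -0.19 to 0.87 for Hist1h1b, -0.17 to 6.23 for Hist1h2aa, -0.15 to 0.072 for Hist2h2be, -0.081 to 0.15 for Hist2h4, -0.030 to 0.69 for Hist2h2bb, -0.13 to 0.28 for Hist4h4, -0.013 to 0.29 for Hist1h4c and -0.00042 to 0.54 for Hist1h3f. Such a fit compares unequal mixes of libraries numbered 1 and 2, and the lone library is assumed to vary like the others. Depth limits Hist1h2aa and Hist1h1t, which had at most 25 reads in a library.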
